A study of Homo sapiens with 6 samples.

Results

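The TNF superfamily in MCF10A cells was described from the 32 amplicons whose gene symbol starts with TNFSF (ligands) or TNFRSF (receptors), out of 20812 amplicons on the panel. There were 11 ligands and 21 receptors, and each gene was read by a single amplicon. MCF10A is a benign, basal-type human mammary epithelial cell line. The study compared untransfected cells (wt), cells carrying an eGFP vector as control (eGFP) and cells stably overexpressing KCNJ3, the gene of the potassium channel subunit GIRK1 (GIRK1). The labels give all 3 groups the same parental line, with 2 libraries each, which the markers of wt replicate 1 contradict, as given below. The eGFP and GIRK1 lines came from transfection with a bicistronic eGFP plasmid, antibiotic selection and sorting of green cells, so both carry vector and selection and wt does not. No label says that the libraries of a group came from separate cultures, so p-values measure only the spread between these libraries, which may be technical. The deposited files also carry a different tag in their names for the GIRK1 libraries than for the other 4. What it stands for is not given, and tag and condition cannot be told apart.

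TNF superfamily ligands are mostly trimeric proteins at the cell surface or shed from it, and each binds 1 or more receptors with cysteine-rich extracellular repeats. Receptors with a cytoplasmic death domain can recruit caspase-activating adaptors, other receptors recruit TRAF proteins and feed into NF-kB, and decoy receptors bind ligand without passing on a complete signal. Many members are known from lymphocytes, while TRAIL, TWEAK, TNF and their receptors also act in epithelia.

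Total reads were 2506120 and 16040556 in wt replicates 1 and 2, 5126930 and 10233974 in eGFP, and 11107309 and 10346572 in GIRK1. A count of 0 therefore allows up to 3 reads, or 1.20, 0.187, 0.585, 0.293, 0.270 and 0.290 RPM (reads of an amplicon scaled to a fixed total number of reads) in the same order, for counting error only. The exact 95% intervals drawn in the plots reach slightly higher at 0 reads, up to 1.47 RPM in wt replicate 1. KCNJ3 had 2408 and 3677 reads in the GIRK1 libraries and 0 reads in eGFP and in wt replicate 2, which matches the labels.

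The library labelled wt replicate 1 stood apart from the other 5 and went against its label. Its 10 basal epithelial markers summed to 369 RPM, against 9418 to 17899 RPM elsewhere, and KRT14, KRT17, KRT6A and TP63 were at 0. TP63 was at 0 in all 6 libraries, so this amplicon tells nothing about the difference. Its 10 luminal markers summed to 18911 RPM, against 531 to 1029 RPM elsewhere, with TFF1 the most abundant at 5106 RPM, and TFF1, ESR1, PGR and KRT19 were at 0 in the other 5 libraries. It also had 48 reads of KCNJ3. The SD of its log2 ratio to the other libraries over 9212 genes was 1.98 to 2.03, against 0.67 between the eGFP libraries and 0.35 between the GIRK1 libraries. By the same measure the first eGFP library was 0.75 from wt replicate 2 and 0.93 and 0.99 from the GIRK1 libraries. The second eGFP library was 0.34 from wt replicate 2, which was 0.58 and 0.61 from the GIRK1 libraries. The library labelled wt replicate 1 entered neither comparison, and its values are given apart at the end. The comparisons were GIRK1 against eGFP (4 libraries) and GIRK1 against eGFP and wt replicate 2 taken as 1 control group (5 libraries). They share the GIRK1 and eGFP libraries, so their values are given side by side and neither is a check of the other.

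Of the 6 members tested with both GIRK1 libraries outside all 3 controls, the upstream sequences of 3 are shown. That of TNFRSF6B was chosen for its largest fitted change. Those of TNFSF10 and TNFRSF9 were chosen because they hold a match to a motif searched. They come from RefSeq promoter windows (GRCh38.p14) of 250 bases before to 50 bases after the start site, cut back to the bases that no exon of a protein-coding GENCODE transcript covers, and run 5′ to 3′ on the gene's strand. Capitals mark matches to the core of the interferon-stimulated response element (GAAA, any 2 bases, GAAA) or of the gamma-activated site (TTCNNNGAA), searched on both strands. The TNFRSF6B stretch is chr20:63696402-63696650 (plus strand), that of TNFSF10 is chr3:172523508-172523680 and that of TNFRSF9 is chr1:7940934-7941089 (both minus strand). The TNFRSF9 stretch lies before the RefSeq start site but inside the GENCODE gene (chr1:7915894-7943165), of which a longer transcript starts farther upstream.
TNFRSF6B: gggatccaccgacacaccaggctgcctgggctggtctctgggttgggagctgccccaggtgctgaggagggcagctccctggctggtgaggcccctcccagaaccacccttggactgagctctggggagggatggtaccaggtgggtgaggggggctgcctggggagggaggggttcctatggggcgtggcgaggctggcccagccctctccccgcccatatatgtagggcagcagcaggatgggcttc
TNFSF10: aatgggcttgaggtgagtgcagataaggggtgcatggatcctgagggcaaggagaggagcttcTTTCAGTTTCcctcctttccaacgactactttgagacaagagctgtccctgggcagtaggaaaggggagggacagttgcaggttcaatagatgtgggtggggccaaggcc
TNFRSF9: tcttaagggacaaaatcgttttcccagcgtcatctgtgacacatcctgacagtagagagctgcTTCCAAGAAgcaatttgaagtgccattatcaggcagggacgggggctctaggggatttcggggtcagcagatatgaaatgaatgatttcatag

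Of the 32 members, 21 had a window in the promoter table. The interferon-stimulated core was found in 5 of them (TNFRSF1B, TNFSF10, TNFSF13B, TNFSF14 and TNFSF9) and in 3.65% of all 27305 windows. The gamma-activated core was found in 2 (TNFRSF9 and TNFSF11) and in 7.88% of all windows. The NF-kB consensus was found in 4 (TNFRSF14, TNFRSF25, TNFRSF9 and TNFSF14) and in 10.8% of all windows, and its letters can overlap on both strands. In TNFRSF6B none of the 3 was found in the window. A match is a description of letters and not a bound site.

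No member passed the adjusted threshold of 0.05 in either comparison (edgeR quasi-likelihood test, Benjamini-Hochberg adjustment over all amplicons tested). Of the 18 members with enough reads to be tested, 6 ligands and 12 receptors, 0 were called in GIRK1 against eGFP, where 1.52% of 11279 amplicons were called, and 0 in GIRK1 against eGFP and wt replicate 2, where 1.21% of 11389 were called. At an unadjusted p below 0.05, 1 member stood out in the first comparison (TNFRSF6B, lower in GIRK1), beside 19.2% of all amplicons. In the second there were 4, TNFRSF6B lower and TNFSF10, TNFRSF10B and TNFSF13 higher, beside 18.7% of all amplicons. DESeq2 called TNFRSF6B alone in each, beside 5.6% and 6.47% of amplicons. The median log2 fold change of the 18 members was −0.05 against eGFP and −0.02 against eGFP and wt replicate 2, and the medians of all amplicons tested were 0.01 and −0.01. The fitted change was under 1 on the log2 scale for 12 of 18 members in the first comparison and for 11 in the second.

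**Figure D1:**
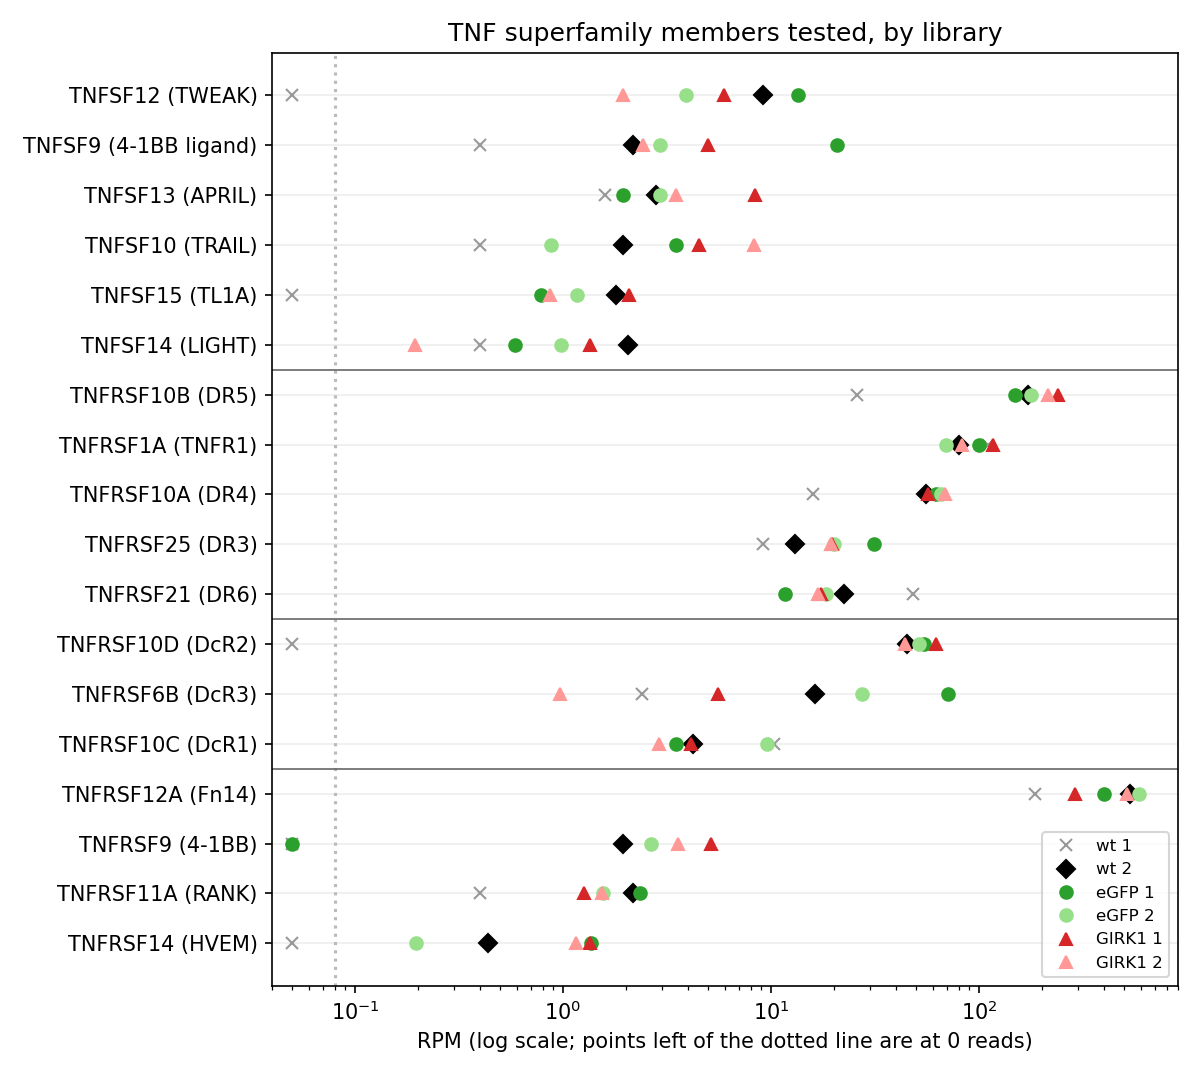
RPM of the 18 members tested (x axis, log scale) in each of the 6 libraries, grouped as ligands, death domain receptors, decoy receptors and other receptors, with points left of the dotted line at 0 reads. TNFRSF6B is the member whose GIRK1 libraries lie farthest below the controls, at 5.58 and 0.97 RPM against 16.3 to 70.6 RPM.

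The decoy receptor TNFRSF6B (DcR3), a soluble receptor that binds FAS ligand, LIGHT and TL1A, had the largest fitted change of the members tested. Its gene lies at chr20:63696651-63698684 (GRCh38, plus strand). It was read at 16.3 RPM in wt replicate 2, at 70.6 and 27.3 RPM in eGFP and at 5.58 and 0.97 RPM in GIRK1. Both GIRK1 libraries were below all 3 controls, and the libraries within each group also differed by more than 2-fold. The mean was 48.9 ± 30.6 RPM in eGFP and 3.27 ± 3.26 RPM in GIRK1 (SD, n = 2 each), 14.9-fold lower, and it was 11.6-fold lower than the mean of the 3 controls. The fitted log2 change was −3.94 (SE 0.80, edgeR adjusted p = 0.078) against eGFP and −3.56 (SE 0.90, edgeR adjusted p = 0.118) against eGFP and wt replicate 2. The call turned on the processing: TNFRSF6B passed the threshold with no filter, the DESeq2 test and the replicate number as a block in both comparisons. It did not pass with the other scalings, with at least 10 reads in every library or with all 6 libraries. In the second comparison it also passed without the first eGFP library, where 984 of 11274 amplicons were called. Against eGFP, leaving a library out leaves 1 in its group. There the log2 change of TNFRSF6B was −3.03 without the first eGFP library and −4.51 without the second. It was −5.68 without the first GIRK1 library and −3.20 without the second. Its gene is overlapped by the RTEL1-TNFRSF6B readthrough gene, which has no amplicon of its own, and whether the TNFRSF6B amplicon also reads that transcript was not tested. RTEL1, the helicase gene just upstream, had a log2 change of −0.27 (edgeR adjusted p = 0.687), and ARFRP1, which overlaps the end of TNFRSF6B on the other strand, 0.46 (edgeR adjusted p = 0.406).

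**Figure D2:**
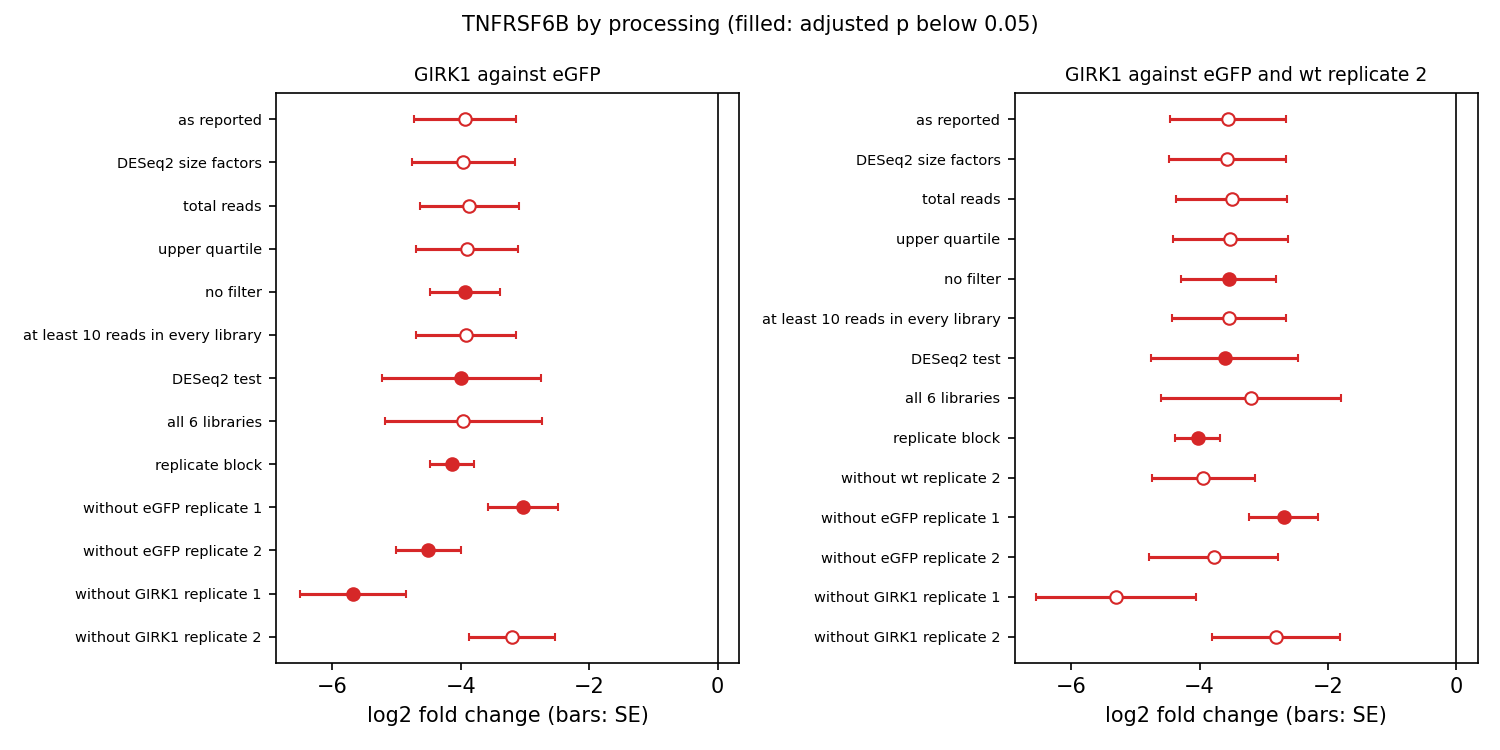
Fitted log2 fold change of TNFRSF6B (x axis; bars, standard error) under each processing alternative, for GIRK1 against eGFP (left) and against eGFP and wt replicate 2 (right); filled points have an adjusted p below 0.05. Every value is below 0, from −5.68 to −3.03 on the left and from −5.30 to −2.69 on the right.

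The other decoy receptors showed smaller differences. TNFRSF10D (DcR2), which binds TRAIL with a truncated death domain, was at 44.9 RPM in wt replicate 2, 54.2 and 51.2 RPM in eGFP and 62.1 and 44.0 RPM in GIRK1, so the groups overlapped. TNFRSF10C (DcR1), a membrane-anchored TRAIL decoy, was at 4.24 RPM in wt replicate 2, 3.51 and 9.58 RPM in eGFP and 4.14 and 2.90 RPM in GIRK1. Its fitted log2 change against eGFP was −0.95 (SE 0.51, edgeR adjusted p = 0.357), with the groups overlapping. It was −1.43 without the first eGFP library and −0.10 without the second. TNFRSF11B (osteoprotegerin), the soluble decoy for RANK ligand, had 0 to 5 reads in the 5 libraries and was not tested. The 4 TRAIL receptor genes on chromosome 8 are close paralogs, and reads shared between them cannot be split by these counts.

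Of the 6 ligands tested, TNFSF10 and TNFSF13 had both GIRK1 libraries above the 3 controls. TNFSF10 (TRAIL), which triggers apoptosis through DR4 and DR5, was at 1.93 RPM in wt replicate 2, 3.51 and 0.88 RPM in eGFP and 4.50 and 8.31 RPM in GIRK1. This is 31, 18, 9, 50 and 86 reads. The log2 change was 1.62 (SE 0.71, edgeR adjusted p = 0.278) against eGFP and 1.66 (SE 0.59, edgeR adjusted p = 0.208) against eGFP and wt replicate 2, past the threshold in neither. Without the first eGFP library it was 2.86, on 1 eGFP library, and 2.14 (edgeR adjusted p = 0.026) in the second comparison. In that last fit 984 of 11274 amplicons were called. Without the second eGFP library the log2 change of TNFSF10 was 0.76 and 1.25 (edgeR adjusted p = 0.377 for the latter). Without the second GIRK1 library it was 1.04 and 1.11. TNFSF13 (APRIL), a B cell survival factor, was at 2.81 RPM in wt replicate 2, 1.95 and 2.93 RPM in eGFP and 8.37 and 3.48 RPM in GIRK1. The first GIRK1 library was the higher, and the second lay just above the controls. The log2 change was 1.21 (SE 0.54, edgeR adjusted p = 0.282) and 1.16 (SE 0.44, edgeR adjusted p = 0.229). Without the first GIRK1 library it was 0.47 and 0.43.

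TNFSF12 (TWEAK), the ligand of Fn14, was at 9.10 RPM in wt replicate 2, 13.5 and 3.91 RPM in eGFP and 5.94 and 1.93 RPM in GIRK1. TNFSF9 (4-1BB ligand), a T cell costimulator, was at 2.18 RPM in wt replicate 2, 20.7 and 2.93 RPM in eGFP and 4.95 and 2.42 RPM in GIRK1. In both, the first eGFP library was the highest and the groups overlapped, with log2 changes against eGFP of −1.16 (edgeR adjusted p = 0.429) for TNFSF12 and −1.70 (edgeR adjusted p = 0.341) for TNFSF9. Without the second eGFP library they were −1.87 and −2.58, and without the first 0.03 and 0.34, each time on 1 eGFP library. TNFSF15 (TL1A), the ligand of DR3, was at 1.81 RPM in wt replicate 2, 0.78 and 1.17 RPM in eGFP and 2.07 and 0.87 RPM in GIRK1. TNFSF14 (LIGHT), a ligand of HVEM, was at 2.06 RPM in wt replicate 2, 0.59 and 0.98 RPM in eGFP and 1.35 and 0.19 RPM in GIRK1. Both overlapped between groups. TNFSF12 and TNFSF13 are neighbours on chromosome 17 with a shared readthrough transcript that has no amplicon on the panel, and whether their amplicons read it was not tested.

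The 5 ligands not tested were near the floor. TNFSF18 (GITR ligand) had 11 reads in wt replicate 2, 2 and 4 in eGFP and 7 and 13 in GIRK1. TNFSF13B (BAFF) had 4 reads in wt replicate 2, 0 and 1 in eGFP and 5 and 5 in GIRK1, so that its GIRK1 libraries lay above the controls in RPM on very few reads. TNFSF4 and TNFSF11 had at most 1 read in any of these libraries and TNFSF8 had none in any of the 6.

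All 5 death domain receptors were tested, and all had fitted changes under 1 on the log2 scale. TNFRSF10B (DR5), a TRAIL receptor, was at 172 RPM in wt replicate 2, 148 and 178 RPM in eGFP and 241 and 215 RPM in GIRK1, with both GIRK1 libraries above all 3 controls. Its mean was 1.40-fold that of eGFP, with a log2 change of 0.44 (SE 0.20, edgeR adjusted p = 0.296), and 0.44 (SE 0.16, edgeR adjusted p = 0.221) with wt replicate 2 among the controls. TNFRSF10A (DR4), the other signalling TRAIL receptor, was at 55.8 RPM in wt replicate 2, 62.4 and 66.0 RPM in eGFP and 57.1 and 68.3 RPM in GIRK1, without separation. TNFRSF1A (TNFR1), the main receptor for TNF in epithelia, was at 80.4 RPM in wt replicate 2, 100.1 and 69.1 RPM in eGFP and 116 and 83.0 RPM in GIRK1. TNFRSF25 (DR3), the TL1A receptor, was at 13.0 RPM in wt replicate 2, 31.4 and 20.1 RPM in eGFP and 19.7 and 19.5 RPM in GIRK1. TNFRSF21 (DR6) was at 22.3 RPM in wt replicate 2, 11.7 and 18.5 RPM in eGFP and 17.4 and 16.9 RPM in GIRK1. For these last 4 receptors the groups overlapped. The log2 change of TNFRSF25 against eGFP was −0.78 with the second eGFP library left out, which leaves 1 eGFP library.

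Among the 12 other receptors, 4 were tested. TNFRSF12A (Fn14), the TWEAK receptor, was at 533 RPM in wt replicate 2, 398 and 588 RPM in eGFP and 289 and 517 RPM in GIRK1, and the groups overlapped. TNFRSF9 (4-1BB), the receptor of 4-1BB ligand, was at 1.93 RPM in wt replicate 2, 0 and 2.64 RPM in eGFP and 5.13 and 3.58 RPM in GIRK1. Both GIRK1 libraries were above the controls, with a log2 change against eGFP of 1.5 (SE 0.91, edgeR adjusted p = 0.403), which was 0.73 without the first eGFP library, at 0 reads. Without the second, the eGFP group was 1 library at 0 reads, and the fitted log2 change was 8.26. TNFRSF11A (RANK) was at 2.18 RPM in wt replicate 2, 2.34 and 1.56 RPM in eGFP and 1.26 and 1.55 RPM in GIRK1, which is 35, 12, 16, 14 and 16 reads. The second eGFP and the second GIRK1 library had nearly the same level. TNFRSF14 (HVEM) had 7 reads in wt replicate 2, 7 and 2 in eGFP and 15 and 12 in GIRK1. Scaled to RPM its groups overlapped, with the first eGFP library at 1.37 RPM and the GIRK1 libraries at 1.35 and 1.16 RPM. Of the 8 not tested, TNFRSF13B, TNFRSF17, TNFRSF4 and TNFRSF8 had no read in any library, and TNFRSF18 and TNFRSF19 none outside wt replicate 1. TNFRSF1B (TNFR2) had at most 3 reads and TNFRSF13C at most 1. In the 5 libraries the 8 T and NK cell markers summed to at most 0.097 RPM and the 5 B cell markers to at most 0.062 RPM. The 7 monocyte and macrophage markers summed to 22.8 to 49.3 RPM, with CD68 at 14.9 to 23.8 RPM and CD14 at 7.11 to 21.7 RPM. Of the others, FCGR3A and LYZ had 0 reads in all 6 libraries. In the 5 libraries ITGAM had 0 to 5 reads, MRC1 0 to 3 and CSF1R 6 to 18. An amplicon at 0 in every library cannot be told apart from one that does not read its gene.

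**Figure D3:**
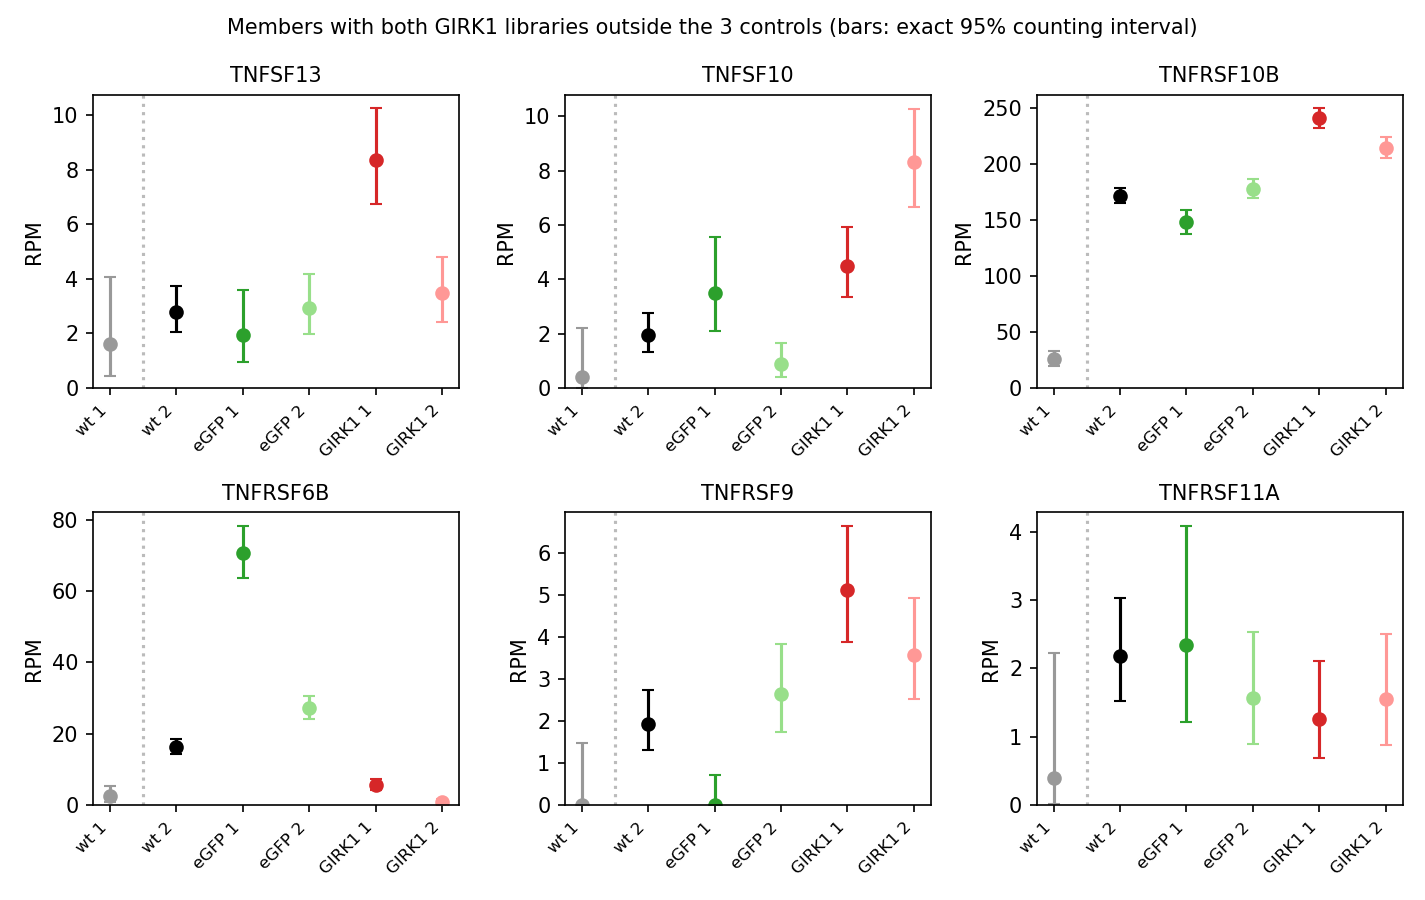
RPM in each library of the 6 members tested whose GIRK1 libraries both lie outside the 3 controls (bars, exact 95% counting interval; wt replicate 1 left of the dotted line). TNFRSF6B and TNFRSF11A are lower in GIRK1, and TNFSF13, TNFSF10, TNFRSF10B and TNFRSF9 are higher.

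Among the members tested, 4 had both GIRK1 libraries above the 3 controls, beside 21.6% of all amplicons tested, and 2 had both below, beside 19.6%. Nothing about the family is read from these counts. A rule modelled on that of the study, taken here as a 2-fold difference of mean RPM and a CV (SD over mean) under 0.7 within each group, named TNFSF13 and TNFSF18 as higher in GIRK1, beside 3.01% of 20802 amplicons, and none as lower, beside 3.28%. TNFRSF6B did not meet it, since the CV of its GIRK1 libraries was above 0.7. KCNJ3 did not meet it either, since no CV can be formed for an eGFP group at 0 reads. Libraries of 1 group differed for several members, some of them on few reads, and whether more often than for other genes was not tested. The eGFP libraries were at least 2-fold apart for 7 of 18 members (16.2% of all amplicons), and the GIRK1 libraries for 6 (4.96%). The second eGFP library and wt replicate 2 were 2-fold apart for 5 members (4.83%), and the first eGFP library and wt replicate 2 for 7 (19.2%).

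**Figure D4:**
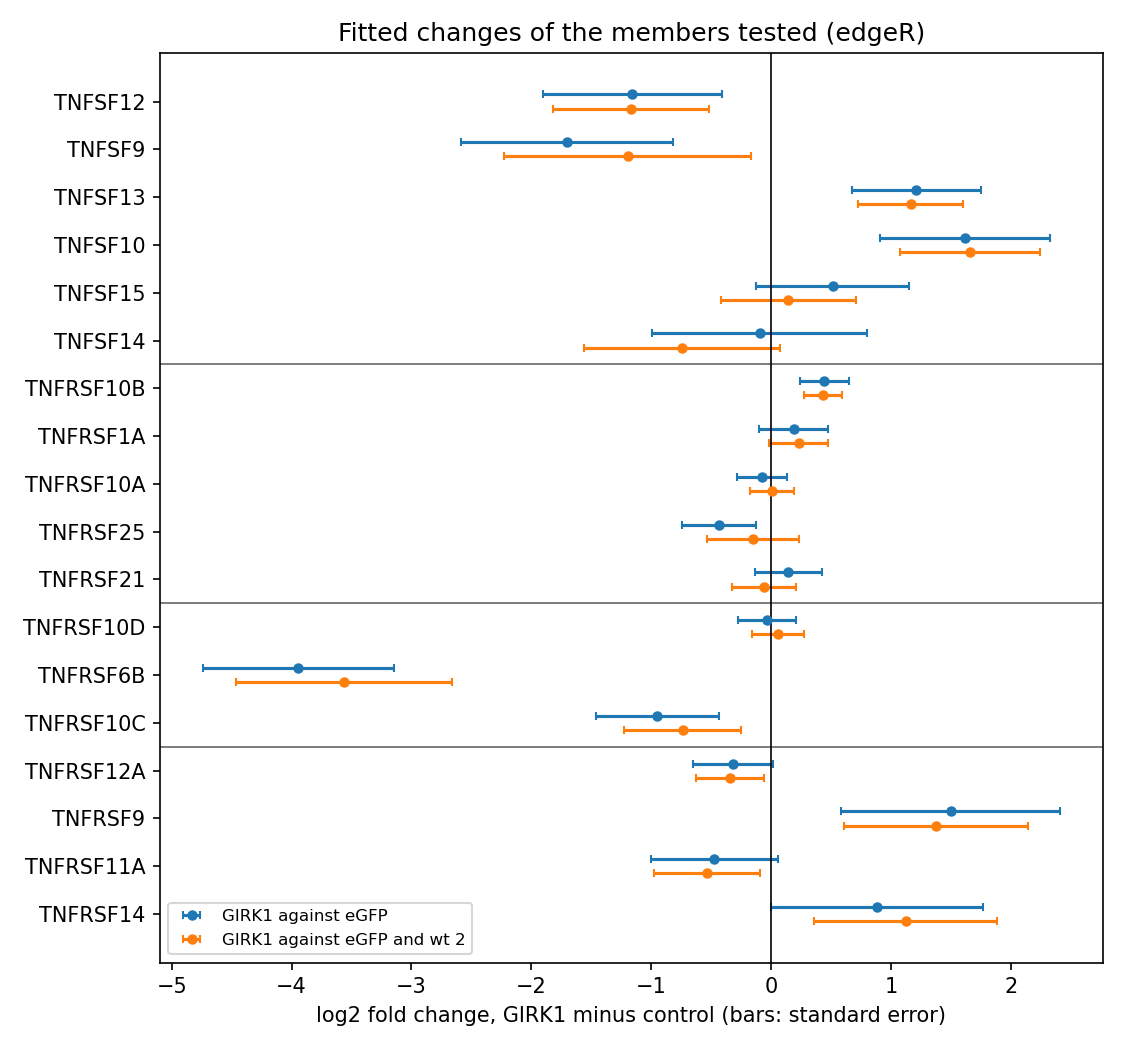
Fitted log2 fold change (x axis; bars, standard error) of the 18 members tested, for GIRK1 against eGFP (blue) and against eGFP and wt replicate 2 (orange). TNFRSF6B lies at −3.94 and −3.56, and the 5 death domain receptors lie between −0.43 and 0.44.

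Genes of the same pathway under other names were looked at in 6 lists, and no gene of any list was called in either comparison. The fold and CV rule named RNF31 as higher in GIRK1, beside 3.01% of 20802 amplicons. It named LTB and BID as lower, and DIABLO and IKBKG on few reads, beside 3.28%. Among the 6 other superfamily ligands on the panel, LTB (lymphotoxin beta) was the 1 with an unadjusted p below 0.05. It was at 2.18 RPM in wt replicate 2, 1.76 and 4.89 RPM in eGFP and 0.72 and 0.48 RPM in GIRK1, below all controls, with a log2 change against eGFP of −2.51 (SE 0.65, edgeR adjusted p = 0.118). TNF itself had 0 to 3 reads, and FASLG and CD40LG none. Among the 8 other receptors, 3 were tested. FAS, the death receptor for FAS ligand, was at 76.1 RPM in wt replicate 2, 77.0 and 88.3 RPM in eGFP and 109 and 105 RPM in GIRK1 (log2 change 0.33, edgeR adjusted p = 0.386). Both GIRK1 libraries were above the 3 controls, and in the second comparison FAS was the 1 receptor of this list with an unadjusted p below 0.05 (log2 change 0.38, edgeR adjusted p = 0.262). LTBR, the lymphotoxin beta receptor, was at 263 RPM in wt replicate 2, 242 and 212 RPM in eGFP and 208 and 199 RPM in GIRK1 (log2 change −0.20, edgeR adjusted p = 0.631). RELT had a log2 change of −1.09 (edgeR adjusted p = 0.421).

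The counts at an unadjusted p below 0.05 in the other lists stand beside 19.2% of all amplicons against eGFP and 18.7% in the second comparison, and none is read as a change of its list. Of 19 receptor adaptors and ubiquitin ligases tested, 3 were below 0.05 against eGFP, each with the higher value in GIRK1. They were RIPK1, the kinase of the TNFR1 complex, and RNF31 and RBCK1 of the linear ubiquitin ligase, and in the second comparison BIRC2 made 4. The median log2 change of this list was 0.11, beside 0.01 for all amplicons. Of 13 NF-kB kinases and subunits tested, NFKB1, NFKB2 and RELB were below 0.05 against eGFP, each with the lower value in GIRK1, and the list median was −0.15. Of 6 death signalling genes tested, BID was the 1 below 0.05, lower in GIRK1, with a list median of 0.28. None of the 5 ligand-shedding proteases and surface partners was below 0.05, with a median of −0.32.

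Marker genes that changed beside these results included KRT17, higher in GIRK1 in both comparisons, and LAMB3, lower in both (edgeR adjusted p = 0.010 and 0.0038 against eGFP). The fibroblast gene DCN was higher against eGFP (edgeR adjusted p = 0.037) and was not called in the second comparison (edgeR adjusted p = 0.145). It was at 10.2 RPM in wt replicate 2, 0.78 and 3.71 RPM in eGFP and 27.0 and 25.2 RPM in GIRK1. The 7 fibroblast markers summed to 8.6 to 13.7 RPM in the 3 controls and to 31.9 and 33.5 RPM in GIRK1. DCN was the most abundant of them in GIRK1 and in wt replicate 2, and COL1A1 in eGFP. COL1A1 was at 2.81 to 9.17 RPM in the controls and at 4.59 and 8.02 RPM in GIRK1, PDGFRB had 2 to 10 reads in these 5 libraries, and COL1A2 and PDGFRA were at 0 in all 6. Their part in the values of the TNF superfamily was not tested. In these bulk libraries fewer cells of a type and less RNA per cell cannot be told apart.

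In the library labelled wt replicate 1, 4 of 32 members lay above all 3 controls beyond counting error, beside 16.4% of 20802 amplicons, and 6 lay below, beside 10.8%. The library differed from the others across the panel, so these counts are no result about the family. TNFRSF21 was at 48.3 RPM, against 11.7 to 22.3 RPM in the controls. TNFRSF11B was at 16.8 RPM (42 reads), where the controls had 1 to 5 reads. TNFRSF18 (GITR) and TNFRSF19 (TROY) were at 7.18 and 7.98 RPM, on 18 and 20 reads, and had no read in the other 5 libraries. The 6 lower members were TNFRSF10A, TNFRSF10B, TNFRSF10D, TNFRSF12A, TNFRSF6B and TNFSF12. TNFRSF10D had 0 reads in this library, where the controls were at 44.9 to 54.2 RPM, and TNFRSF10B was at 25.9 RPM, where they were at 148 to 178 RPM. All members summed to 445 RPM here, against 848 to 1046 RPM in the other 5 libraries. The part of its luminal markers in these differences was not tested.

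**Figure D5:**
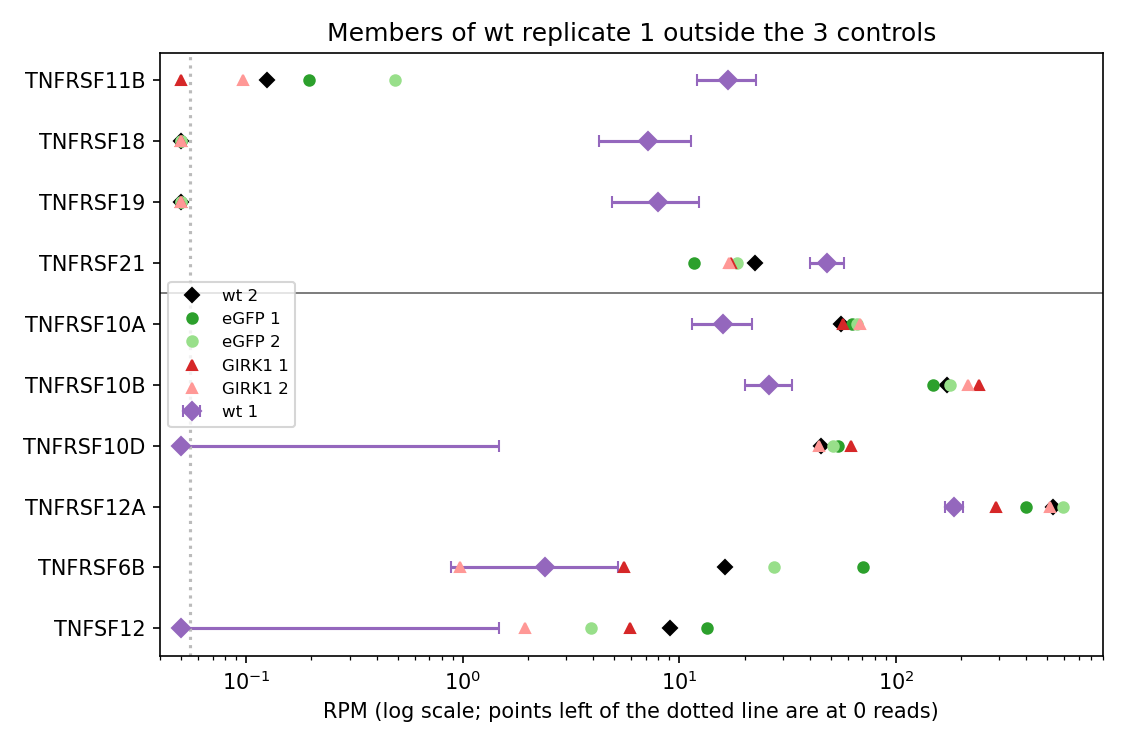
RPM (x axis, log scale) of the 10 members for which the library labelled wt replicate 1 (purple, exact 95% counting interval) lies outside the 3 controls, with the other 5 libraries beside it and points left of the dotted line at 0 reads. It is higher for the 4 members at the top and lower for the 6 below.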

How the data were processed

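RNA of 6 libraries labelled MCF10A was read with a targeted amplicon panel (Ion AmpliSeq Transcriptome) on an Ion S5 XL. The authors deposited raw read counts per amplicon and the same values as RPM, made with the Ion Torrent workflow (its version is not given in the sources used here). Groups came from the labels. The 10 spike-in amplicons had 0 reads and were left out of the tests, leaving 20802. Counts were tested with edgeR 4.0.16 (TMM, filterByExpr, quasi-likelihood test; R 4.3.3) and Benjamini-Hochberg adjustment at 0.05 over all amplicons tested, with DESeq2 1.42.0 and further scalings and filters as alternatives. Intervals of RPM are exact Clopper-Pearson intervals (95%). The method was tested on simulated data. Large changes were planted there in well-read genes only, and no library differed from its group. Such a simulation does not cover members with few reads or a library that stands apart. Values in every library were given for members with a mean of at least 10 reads over the 5 libraries other than wt replicate 1. Other members are given by read counts, and values of members outside this rule (those of wt replicate 1 and TNFRSF14) were added after the data were seen. The members and lists were chosen with earlier results of these data known. Gene positions come from GENCODE v29 (GRCh38).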

Additional observations from a re-analysis of the deposited data

Results flagged for a closer look

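In the library labelled wt replicate 1, which entered neither comparison, 4 receptors were above the level of all 3 control libraries beyond counting error, as were 16.4% of all amplicons in a library that differed across the whole panel. TNFRSF21 was at 48.3 RPM, TNFRSF11B at 16.8 RPM, TNFRSF19 at 7.98 RPM and TNFRSF18 at 7.18 RPM. No group of 4 or more libraries was available for a test of outlying libraries.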

How the results depend on the processing

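The count of members called against eGFP was 1 with no filter, 1 with the DESeq2 test and 1 with the replicate block (TNFRSF6B each time). Without the second eGFP library, 5 were called (TNFRSF6B, TNFSF9, TNFSF12, TNFRSF25 and TNFRSF9), and without the first, 2 (TNFRSF6B and TNFSF10). With wt replicate 2 among the controls the count of members called was 1, 1 and 1 under the same 3 settings. Without the first eGFP library it was 2 (TNFRSF6B and TNFSF10), beside 984 of 11274 amplicons. Without the second it was 0, beside 31 of 11291. All amplicons called against eGFP were 172, with 881 for no filter, 111 for at least 10 reads in every library, 672 for DESeq2, 0 for all 6 libraries (606 at an unadjusted edgeR p below 0.05), 590 for the replicate block and 89 to 2933 with 1 library left out. In the second comparison they were 374, 774 and 558 for no filter, DESeq2 and the block, 7 for all 6 libraries and 19 to 984 with 1 library left out. The fold and CV rule named 2 members, 9 with no CV condition and 1 when members averaging under 10 reads were left out. No share of all amplicons was taken without the CV condition or with that read limit, so nothing is read from those counts.

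The direction held under every alternative for 8 of 18 members against eGFP and 9 of 18 in the second comparison, TNFRSF6B, TNFSF10, TNFSF13, TNFRSF10B, TNFRSF9, TNFRSF10C and TNFRSF11A in both. Against eGFP, TNFRSF10D turned to 0.01 with scaling by total reads. In the second comparison, TNFRSF10D was −0.02 and TNFRSF21 0.04 with the replicate block, and TNFRSF25 was 0.07 with all 6 libraries. With 1 library left out, log2 changes against eGFP spanned 0 for TNFRSF10A (−0.23 to 0.07), TNFRSF10D (−0.29 to 0.18), TNFRSF12A (−0.82 to 0.05), TNFRSF14 (−0.22 to 2.62), TNFRSF1A (−0.11 to 0.54), TNFRSF21 (−0.10 to 0.45), TNFSF12 (−2.18 to 0.03), TNFSF14 (−2.00 to 0.69), TNFSF15 (−0.21 to 0.99) and TNFSF9 (−2.58 to 0.34). In the second comparison they did for TNFRSF10A (−0.14 to 0.15), TNFRSF10D (−0.19 to 0.27), TNFRSF12A (−0.84 to 0.03), TNFRSF1A (−0.01 to 0.44), TNFRSF21 (−0.24 to 0.14), TNFRSF25 (−0.43 to 0.27), TNFSF14 (−2.64 to 0.05), TNFSF15 (−0.57 to 0.63) and TNFSF9 (−1.80 to 0.56). The cause of these changes was not tested. Where a group is left with 1 library, it is assumed to vary like the others.

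Replicate numbers are shared between groups, but the libraries share only a number. Across 9212 genes the replicate differences of eGFP and GIRK1 correlated at 0.195. Correlations with wt rest on wt replicate 1 and are not used.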
